A study of Mus musculus with 4 samples.

Results

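Integrins are cell surface receptors built of 1 α and 1 β subunit that bind matrix proteins or molecules on other cells. The 10 subunits described here were taken by name, and the family was picked with earlier results of these data known: every probe of the array table whose gene name was ITGB7, ITGAE, ITGA4, ITGAL, ITGAM, ITGAX, ITGB1, ITGB2, ITGA6 or ITGAV was taken. The rule found all 10 among the 31490 gene names of the table, with 27 of its 45281 probes. RNA came from whole thymus of mice on the C57BL/6 background, either of a miR-181d transgenic line (Tg-8) or of a miR-181d knockin line. Each genotype had 2 samples, each read on its own bead array, and nothing in the labels says whether the samples of a genotype came from separate animals, so the p-values measure only the spread between these samples, which may be technical for the transgenic pair. The labels give neither the promoter of the transgene, nor how the knockin allele was made, nor the animals' age, and thymus of wild-type mice is not analysed here. Each value only sets one genotype against the other.

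In the thymus, integrins hold thymocytes to the stroma and steer progenitors in and mature T cells out. αLβ2 (LFA-1) binds ICAM molecules on stromal and antigen-presenting cells, α4β1 binds VCAM-1 and fibronectin, α6 pairs with β1 or β4 to bind laminin, and αV pairs with several β subunits to bind matrix proteins and latent TGF-β. β7 forms 2 receptors, α4β7, which binds MAdCAM-1 of gut vessels, and αEβ7 (CD103), which binds E-cadherin of epithelium. αM (CD11b) and αX (CD11c) pair with β2 on granulocytes, macrophages and dendritic cells. The microRNA named by both lines, whose level was not measured here, belongs to a family abundant in immature thymocytes. Its mature 5p sequences are shown because all 4 members carry one seed, the bases that guide target choice. They are credited to RefSeq on GRCm38.p6, run 5′ to 3′, and have bases 2 to 8 in capitals.
mmu-miR-181a-5p: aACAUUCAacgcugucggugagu
mmu-miR-181b-5p: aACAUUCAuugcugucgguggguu
mmu-miR-181c-5p: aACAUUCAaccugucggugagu
mmu-miR-181d-5p: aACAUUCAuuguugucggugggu

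The arrays differed in overall brightness, and 1 differed in sex. The 75th percentile of signal was 254 and 227.1 on transgenic replicates 1 and 2 and 233 and 262.7 on knockin replicates 1 and 2, so transgenic 1 and knockin 2 were the brighter arrays before normalisation. All 4 lay on a single slide, and their array names end in A and B for transgenic 1 and 2 and in E and F for knockin 1 and 2. The brightest Xist probe read 129.5 on knockin 2 against 4366 to 4570 on the others, while Ddx3y read 3519 there against 484.4 to 553.7, so knockin 2 alone carried a male pattern and the knockin arrays read different animals. Defining transcripts of double-positive thymocytes, the most numerous thymic cells, were above background on all 4 arrays for 11 of 11 genes. Of 9 thymic epithelium genes, 7 were above it on all 4 arrays, and Foxn1 and Epcam were below it on all 4. A probe counts as above background where its signal exceeds the most common signal of its array by 3 SDs, which gave limits of 145.6 to 149.4. In whole-organ RNA, fewer cells of a type and less RNA per cell cannot be told apart.

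Of the 27 integrin probes, 17 were above background on all 4 arrays, 3 on some and 7 on none. The probes of Itgb7 and Itgal and the 2 brightest of Itgae read 599.2 to 1306.7. Probes differ in how well they bind, so signals are compared only within a probe. Itgam and Itgax, the subunits of myeloid cells, were below background on every array with each of their probes. The remaining 8 genes each had at least 1 probe above it on all 4 arrays.

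**Figure D1:**
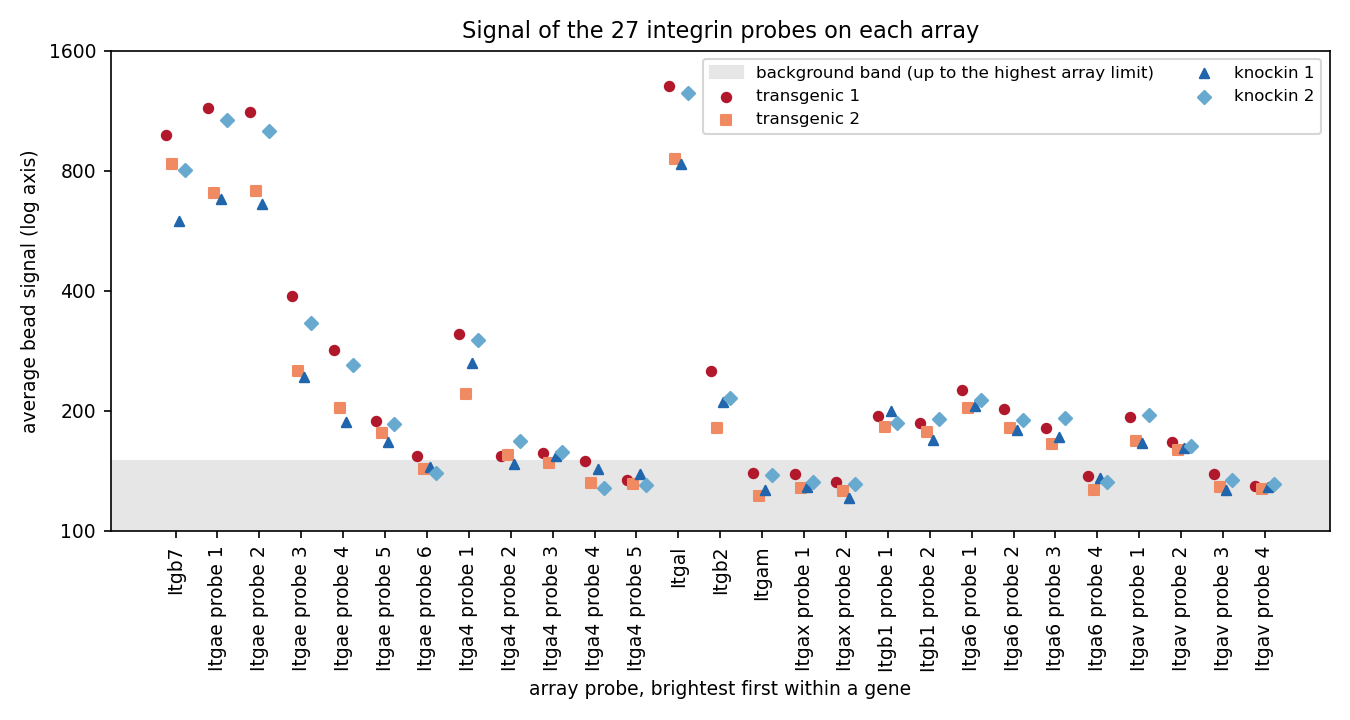
Average bead signal (log axis) of all 27 integrin probes on the 4 arrays, with the probes of a gene ordered from brightest to dimmest and the background band shaded up to the highest array limit of 149.4. Itgb7, Itgal and the 2 brightest Itgae probes lie between 599.2 and 1306.7, whereas Itgam and Itgax lie inside the band.

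The comparison asks whether integrin transcripts differ between thymus of the transgenic and of the knockin line. No integrin probe passed limma's test at a Benjamini-Hochberg adjusted p under 0.05, where 36 of all 45281 probes (0.0795%) did. The probe nearest to passing was Itgb7 (adjusted p = 0.373). At an unadjusted p under 0.05, 1 of 27 integrin probes passed (3.7%), higher in transgenic thymus, beside 4.63% of all probes. Among probes above background on all arrays it was 1 of 17 (5.88%) beside 8.07%. The genotypes did not overlap for 8 of the 27 probes, 6 higher and 2 lower in transgenic thymus, beside 32.7% of all probes. For the 17 probes it was 6 of them, beside 30.9%. All of these shares, with the 4 arrays in the fit, lay near their background. The unadjusted count depended on single arrays. It was 5 of 27 without transgenic 2 (18.5%, Itgb7 and 4 probes of Itgae, beside 4.61% of all probes), 3 without knockin 2 (11.1%, beside 3.85%), 2 without transgenic 1 (7.41%, beside 6.87%) and 1 without knockin 1. The median log2 difference, transgenic minus knockin, was 0.067 over the 27 probes and 0.0008 over all probes. Without transgenic 1 the median over the 27 turned to -0.027, without transgenic 2 it was 0.13, without knockin 1 it was 0.031 and without knockin 2 it was 0.066. Over the 17 it was 0.10, and over all 18053 probes above background on every array it was 0.0013. Without transgenic 1 the median over the 17 was 0.0039, and without knockin 1 it was 0.033.

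**Figure D2:**
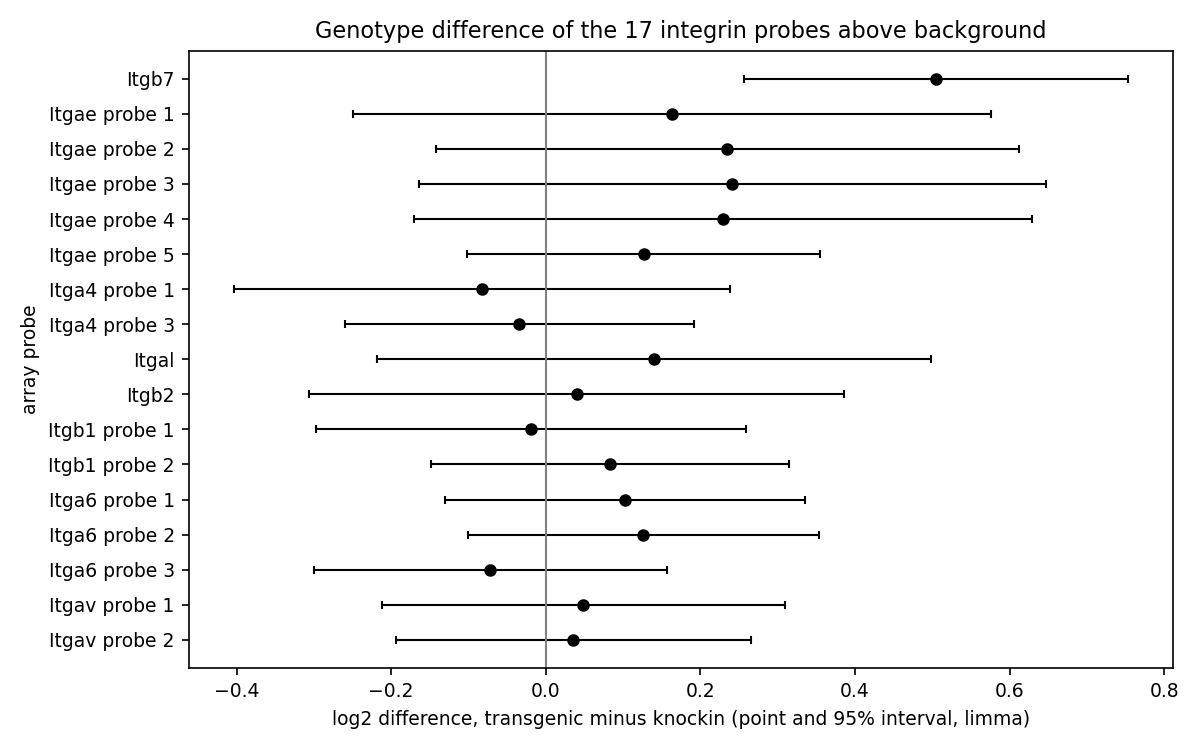
log2 difference, transgenic minus knockin, of the 17 integrin probes above background on all 4 arrays, as the limma estimate (point) with its unadjusted 95% interval (bar), n = 2 arrays per genotype. The Itgb7 interval runs from 0.26 to 0.75, and the intervals of the other 16 probes include 0.

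Itgb7, the β7 chain shared by α4β7 and αEβ7, gave the largest genotype difference of the family. Its single probe (830543) read 985.1 and 831.7 in transgenic and 599.2 and 801.9 in knockin thymus. Both transgenic arrays lay above both knockin arrays, and knockin 1 was the lowest. After normalisation the log2 intensity was 9.75 ± 0.01 (SD, n = 2) in transgenic and 9.25 ± 0.15 (SD, n = 2) in knockin thymus. The difference was 0.50 on the log2 scale (SE 0.11, 1.42-fold, 95% interval 0.26 to 0.75), with limma's unadjusted p at 0.0012 and adjusted p = 0.373, so it did not pass. A difference of at least this size was seen in 1.2% of the 18053 probes above background. The 4 transgenic-knockin pairs restate this order, with differences from 0.39 (transgenic 1 against knockin 2) to 0.62 (transgenic 2 against knockin 1). Genotypes that did not overlap, in either direction, were seen in 30.9% of those 18053 probes. Without knockin 2, the male sample, the difference was 0.61 (adjusted p = 0.232), and without knockin 1 it was 0.40 (adjusted p = 0.773). Over the 11 alternatives set out with the design, it ranged from 0.40 to 0.61 with adjusted p from 0.232 to 1. It passed in 1 fit added after the data were seen, with transgenic 1 and knockin 2 as one block and the other arrays as another. Earlier results of these data already singled out Itgb7, so this value is no independent support for it.

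Summed lymphocyte marker signals are given here beside Itgb7. The summed signal of 11 genes of mature T cells was 11471 and 10964 in transgenic and 10480 and 12593 in knockin thymus, and 2 of them were below background throughout. That of 11 genes of γδ T and innate-like lymphocytes was 3398 and 3479 against 2875 and 3392, lowest on knockin 1 as for Itgb7. Both transgenic sums were above both knockin sums, but only by 3398 against 3392 at the closest, in signals before normalisation. Of the 11 genes, 3 were lower in transgenic thymus. Only 6 of these 11 genes were above background on all 4 arrays, and Gzma was below it on all 4. For 11 double-positive thymocyte genes the sum was 46620 and 40961 against 50422 and 48556, with 7 genes lower in transgenic thymus. Here both transgenic sums were below both knockin sums. For 8 B cell genes it was 10002 and 8808 against 8264 and 10042, with 6 lower. The mature T cell and B cell sums were also lowest on knockin 1. The part of these cells in the Itgb7 difference was not tested.

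The promoter windows of Itgb7 and Itga4 are shown because they encode the 2 chains of α4β7, of which the first gave the largest difference and the second none of its size. Each holds 250 bases before to 50 after a transcript start in the RefSeq table (GRCm38.p6), 5′ to 3′ on the gene's strand, at chr15:102231886-102232185 (minus strand) for Itgb7 and chr2:79255176-79255475 (plus strand) for Itga4. Capitals mark TGTGGT, the core bound by RUNX factors, and GGAAGT, bound by ETS factors, on either strand. No matches overlap in these windows. The Itgb7 window lies wholly inside the gene's span, chr15:102215994-102233405, so its start is not the outermost one. The Itga4 window begins ahead of that gene's span, chr2:79255426-79333114. Such letters are a description of the window and not a site.
Itgb7: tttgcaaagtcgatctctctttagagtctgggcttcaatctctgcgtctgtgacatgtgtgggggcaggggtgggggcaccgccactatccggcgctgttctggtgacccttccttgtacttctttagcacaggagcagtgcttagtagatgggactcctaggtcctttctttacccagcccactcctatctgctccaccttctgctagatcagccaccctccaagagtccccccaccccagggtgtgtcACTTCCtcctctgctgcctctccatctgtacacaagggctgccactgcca
Itga4: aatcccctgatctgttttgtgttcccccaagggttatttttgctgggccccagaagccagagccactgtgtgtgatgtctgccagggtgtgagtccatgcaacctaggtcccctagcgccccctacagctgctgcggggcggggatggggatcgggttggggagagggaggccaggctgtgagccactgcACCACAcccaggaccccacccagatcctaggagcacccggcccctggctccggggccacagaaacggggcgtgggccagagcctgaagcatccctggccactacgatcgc

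The Itgb7 window held 1 ETS match and no RUNX match, and the Itga4 window 1 RUNX match and no ETS match. Among 32851 windows of the same length, 23.8% held the ETS letters and 16.8% the RUNX letters. Windows of Itgav, Itgam, Itgax and Itgb1 were also in the table. Itgav held 2 ETS matches, Itgax held 2 ETS and 1 RUNX match, and Itgam and Itgb1 held neither.

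Itgae encodes the αE chain, which pairs only with β7, and 4 of its 6 probes varied more between arrays of one genotype than between genotypes. Its brightest probe (520196) read 1150.6 and 702.4 in transgenic and 680 and 1071.6 in knockin thymus. The next (7100687) read 1122.1 and 712.3 against 660.5 and 1004.4. On both, transgenic 1 and knockin 2 were high and transgenic 2 and knockin 1 low, so the genotypes overlapped. Probe 5700017 gave 387 and 251.1 against 242.5 and 332.6. Probe 6450471 gave 284.7 and 203.2 against 187.7 and 260.9. All 4 probes thus ranked the arrays alike, with transgenic 1 highest, then knockin 2, transgenic 2 and knockin 1. They target 1 gene in the same RNA samples and are not replicates. The dimmer probe 1300059, at 189 and 175.6 against 166.6 and 185.6, had the same order in signal. After normalisation, however, both transgenic arrays lay above both knockin arrays, with a difference of 0.13 (SE 0.10, 95% interval -0.10 to 0.35, limma adjusted p = 1.0) and gaps of 0.0091 and 0.090 within the genotypes. Probe 2490382, above background on 1 array, read 154.2 and 143.2 against 144.5 and 139.5, and its normalised values were also separated, by 0.0022 between the closest arrays. Such separation was seen in 30.9% of probes above background on all 4 arrays and in 32.7% of all probes.

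Quantile normalisation did not remove that spread. On the normalised log2 scale transgenic 1 exceeded transgenic 2 by 0.43 to 0.56 over the 4 Itgae probes, and knockin 2 exceeded knockin 1 by 0.35 to 0.46. With median scaling in place of quantile normalisation these gaps were 0.60 to 0.73 and 0.53 to 0.66. The range over the 4 arrays was as wide in 3.0% to 4.21% of the 18053 probes above background. The genotype difference of the 4 probes was 0.16 to 0.24. For the brightest it was 0.16 (SE 0.18, 95% interval -0.25 to 0.58, limma adjusted p = 1.0), and for 7100687 it was 0.23 (SE 0.17, 95% interval -0.14 to 0.61, limma adjusted p = 1.0). The upper ends correspond to 1.49-fold and 1.53-fold, so increases up to that size lie within the error of the comparison. The difference of the brightest probe rested on single arrays, at -0.08 without transgenic 1, 0.41 without transgenic 2, -0.07 without knockin 1 and 0.40 without knockin 2. The mean of all 6 Itgae probes differed by 0.19 (SE 0.14, limma adjusted p = 0.999 over 19579 genes).

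**Figure D3:**
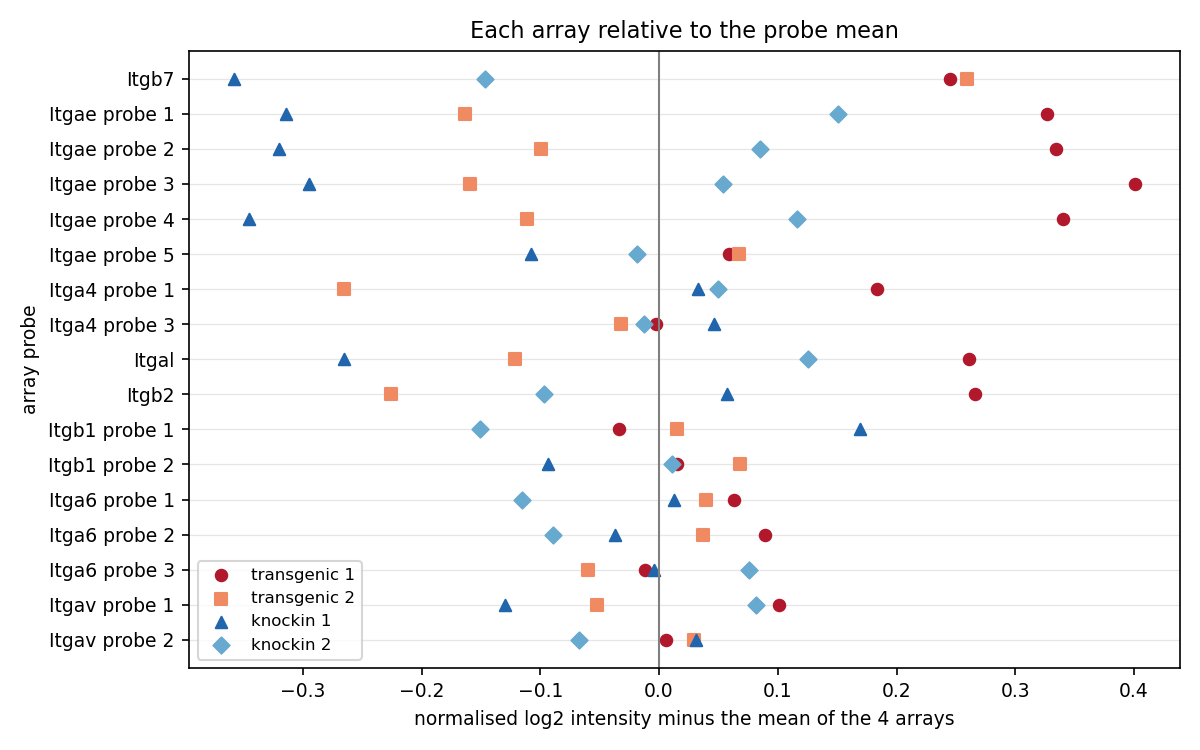
Normalised log2 intensity of each array minus the mean of the 4 arrays, for the 17 integrin probes above background, with 1 symbol per array. For 4 Itgae probes and Itgal, transgenic 1 and knockin 2 lie to the right of transgenic 2 and knockin 1, whereas for Itgb7 both transgenic arrays lie to the right.

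Itgal, the αL chain of LFA-1, followed the same order as Itgae. Its probe (1170091) read 1306.7 and 855.8 in transgenic and 829.5 and 1255.7 in knockin thymus. The genotypes overlapped, with transgenic 1 and knockin 2 high. The normalised gaps were 0.38 between the transgenic arrays and 0.39 between the knockin arrays, and the genotype difference was 0.14 (SE 0.16, 95% interval -0.22 to 0.50, limma adjusted p = 1.0). It was 0.33 without transgenic 2 and 0.34 without knockin 2, but -0.05 without transgenic 1 and -0.06 without knockin 1. Counting all integrin probes above background on the normalised scale, transgenic 1 and knockin 2 both stood above the other arrays in 7 of 17. Of these, 4 were probes of Itgae, and the share over the 18053 probes was 21.8%. The same 2 arrays both stood below the others in 2 of 17, beside 24% of the 18053 probes.

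Itgb2, the β chain that αL, αM and αX share, did not follow Itgal. Its probe (4560601) read 252.3 and 181.2 in transgenic and 210.5 and 215.3 in knockin thymus. Transgenic 1 was the highest and transgenic 2 the lowest, with both knockin arrays between. The genotype difference was 0.04 (SE 0.15, 95% interval -0.31 to 0.39, limma adjusted p = 1.0), and -0.20 without transgenic 1 against 0.29 without transgenic 2.

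Of the β2 partners on myeloid cells, Itgam read 122.3 to 139.8 and the 2 Itgax probes 120.9 to 139.2, all below background, so no fold is given for them. This held although granulocyte markers differed between the genotypes. The summed signal of 10 granulocyte genes was 5577 and 4277 in transgenic and 10286 and 13029 in knockin thymus, 4 of the 10 passed limma's test over all probes and 9 were lower in transgenic thymus. For 11 macrophage genes the sum was 13769 and 13586 against 15225 and 16381, and for 10 dendritic cell genes 16708 and 13471 against 14996 and 20338. Macrophage markers were above background on all arrays for 11 of 11 genes, and dendritic cell markers for 5 of 10, with Xcr1, Cd209a and Ccl22 below it on all 4. None of the macrophage or dendritic cell genes passed.

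Itga4, the α4 chain that pairs with β1 or β7, had 5 probes, of which 2 were above background on all arrays. The brightest (3360369) read 312.1 and 219.9 in transgenic and 263.6 and 300.5 in knockin thymus. The 2 knockin values lay between the 2 transgenic ones. The difference was -0.08 (SE 0.14, 95% interval -0.40 to 0.24, limma adjusted p = 1.0), and it turned to 0.14 without transgenic 2. The second (6560014) read 147.9 to 157.3 and differed by -0.03 (95% interval -0.26 to 0.19). So the estimates of both α partners were smaller than that of Itgb7. The intervals of the 4 brighter Itgae probes, with upper ends of 0.58 to 0.65, include the 0.50 of Itgb7. That contrast between subunits was not tested.

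Itgb1, the most widely paired β chain, read not far above background. Its probes gave 193.6 and 182.2 against 199.4 and 186.8 (3890670), and 186.7 and 177.1 against 168.8 and 190.2 (3930307). The arrays of the 2 genotypes overlapped in signal on both probes. The differences after normalisation were -0.02 (95% interval -0.30 to 0.26) and 0.08 (95% interval -0.15 to 0.31). On 3930307 the genotypes no longer overlapped after normalisation, with 0.0042 between the closest arrays.

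Itga6, the laminin-binding α6 chain, gave small differences of both signs. Of its 4 probes 3 were above background. The brightest (1690129) read 226 and 202.7 in transgenic and 205.9 and 212.8 in knockin thymus and differed by 0.10 (95% interval -0.13 to 0.34). Probe 4060450 differed by 0.13 (95% interval -0.10 to 0.35) and probe 2350068 by -0.07 (95% interval -0.30 to 0.16). The normalised values of the genotypes were separated on all 3, with the third opposite to the others, beside 30.9% of all probes above background.

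Itgav, the αV chain, had 2 of 4 probes above background. The brighter (7330360) read 193.1 and 167.8 in transgenic and 165.6 and 195.4 in knockin thymus, and the other (4540025) 159 to 166.7. Their differences were 0.05 (95% interval -0.21 to 0.31) and 0.04 (95% interval -0.19 to 0.27). For Itgb1, Itga6 and Itgav, the intervals of all 7 probes above background lay within -0.30 and 0.35 on the log2 scale. The differences of these dim probes were smaller in size than with an offset of 16 and larger than without background correction.

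Related genes were described in 4 lists, each gene by its brightest probe. Over all 4 lists, 0 of 111 measured genes passed limma's adjusted test, where 0.0795% of all probes did. At an unadjusted p under 0.05, 4 were higher and 3 lower in transgenic thymus (6.31%), beside 4.63% of all probes and 8.07% of those above background. Which direction held more such genes changed with the array left out, and those fits leave 1 array in a genotype. Other integrin subunits numbered 16, of which 8 were above background on all arrays and none passed at either threshold (median 0.045). Itga8, an RGD-binding partner of β1, had the smallest p of them and read 159.5 and 151.9 in transgenic and 145.5 and 147.2 in knockin thymus, where it was below background. It was at 0.18 (SE 0.10, limma adjusted p = 1.0). Among the 8, Itgb4, the β chain of epithelial α6β4, was at -0.28 (SE 0.17), and Itgad, another partner of β2, at 0.19 (SE 0.14). The fibronectin receptor chain Itga5 was at -0.05, the tenascin receptor chain Itga9 at 0.13, the collagen receptor chains Itga1 and Itga10 at -0.04 and 0.06, the laminin receptor chain Itga3 at -0.02 and the αV partner Itgb5 at 0.04.

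Integrin ligands held the largest value of the lists. Spp1 encodes osteopontin, a secreted ligand of αV and α4 integrins, and its probe read 229.8 and 248 in transgenic and 147.6 and 173 in knockin thymus. Both transgenic arrays lay above both knockin arrays, and knockin 1 was below background. Genotypes that did not overlap, in either direction, were seen in 32.7% of all probes. The log2 difference was 0.95 (SE 0.14, 1.93-fold, 95% interval 0.62 to 1.27, limma adjusted p = 0.0703), which did not pass. Over 11 other settings it ranged from 0.63 to 1.31 with adjusted p from 2.58e-04 to 0.797. Both ends of that range came with a change of background correction. The difference was 0.63 on uncorrected signals and 1.31 with an offset of 16, so its size depended on that step. It passed without knockin 2 (1.05, adjusted p = 0.0265) and without transgenic 1 (1.11, adjusted p = 0.0153), and missed without transgenic 2 (0.78, adjusted p = 0.183) and without knockin 1 (0.83, adjusted p = 0.0946). With the replicate number as a block it passed (adjusted p = 0.0418).

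The other ligands were closer to 0. Over 32 ligand genes the median was 0.014, and 2 genes were higher and 1 lower at an unadjusted p under 0.05, beside 4.63% of all probes. Icam2, a ligand of LFA-1 on endothelium and leukocytes, read 2582 and 2544 against 2333 and 2249 and differed by 0.27 (limma adjusted p = 1.0). Lamb2, a laminin chain, was at 0.28. Tgfb1, whose latent form is a ligand of αV integrins and whose product induces αE in T cells, read 496.1 and 372.2 against 532.2 and 601.9. Both transgenic arrays lay below both knockin arrays, a separation seen in either direction in 30.9% of probes above background. Tgfb1 differed by -0.38 (SE 0.12, limma adjusted p = 0.813). It also led the list of homing and TGF-β genes (24 measured, median -0.036, with 2 lower and 0 higher at an unadjusted p under 0.05, beside 4.63% of all probes), where its signalling protein Smad2 was at -0.23, Smad3 at 0.18 and the selectin ligand Selplg at 0.20.

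Genes that activate integrins or link them to actin had a median of -0.014 over 41 measured genes, 20 above and 21 below 0. Stk4, a kinase that acts with RAPL on LFA-1, was at 0.27, and the focal adhesion protein Zyx at -0.29. Dock2, an exchange factor for Rac in lymphocytes, was at 0.32, and Ptk2b, the kinase PYK2, at 0.26. None of these 4 passed (limma adjusted p = 1.0 for each).

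**Figure D4:**
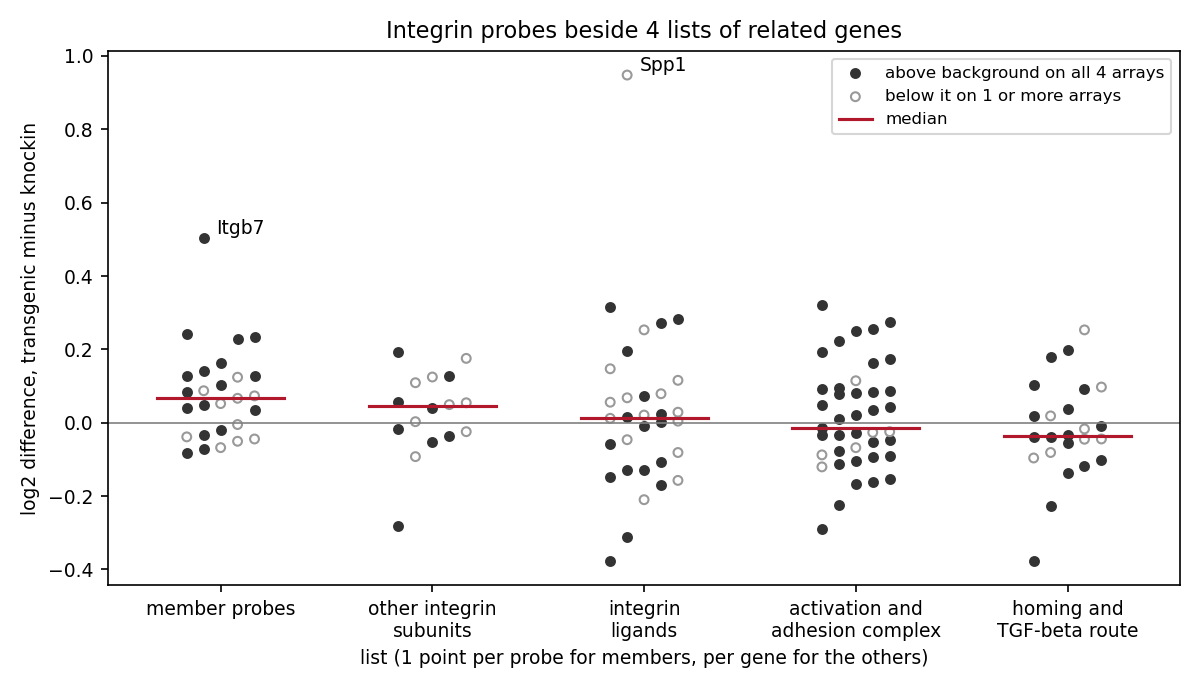
log2 difference, transgenic minus knockin, of the 27 integrin probes and of the genes of 4 related lists (1 probe per gene), with filled points above background on all 4 arrays, open points below it on 1 or more, and red lines at the medians. Itgb7 at 0.50 and Spp1 at 0.95 stand apart from the other points, and the medians lie between -0.036 and 0.067.

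The probes whose pattern was most like Itgb7, by the root mean square distance of mean-centred log2 values over the 4 arrays, were those of LOC381132 (0.035), Mgat3 (0.037), Vti1-pending (0.038), Fkbp5 (0.042) and Cdk5rap1 (0.045), out of 18052 compared. Fkbp5, a chaperone of steroid receptors known to respond to glucocorticoids, read 2432.6 and 2042.2 in transgenic and 1473.1 and 2091.7 in knockin thymus. Mgat3, a glycosyltransferase of N-glycans, read 246.6 and 224.9 against 168.5 and 209.1. Knockin 1 was the lowest array in both, which follows from their selection by likeness to Itgb7 on these arrays. With 4 arrays, many probes come close by such a measure.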

How the data were processed

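RNA of whole thymus was read on Illumina bead arrays after miRNeasy extraction, DNase treatment and biotin labelling, per the labels' protocols. Per the file headers, the deposited table holds average bead signal intensity from GenomeStudio 1.9.0 with no normalization, and it carries no detection p-values or control probes. The authors' processed intensity table does not pair its probes with genes in the files used here and gave only counts.

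Signals were corrected with normexp (offset 50), log2-transformed, quantile-normalised and fitted with limma 3.58.1 in R 4.3.3 (lmFit, eBayes, two-sided tests, no filter). Adjusted p-values follow Benjamini-Hochberg across the 45281 probes, with calls made under 0.05. The offset of 50 gave smaller integrin differences than an offset of 16 and larger ones than uncorrected signals. The median over the integrin probes was 0.067, against 0.118 and 0.034. The code was tested on simulated data. The number of arrays limits precision. Array names were matched to RefSeq symbols (GRCm38.p6), 76.8% of probes to 1 gene, and Fermt3 was not matched. Promoter windows were given for 6 of the 10 genes.

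Named genes were all members, other subunits above background on all arrays, the 4 genes of smallest p in each list among those above background on both arrays of at least 1 genotype and the 5 probes nearest to the leading member. Members and lists were chosen with earlier results of these data known. Same-numbered arrays did not deviate together (r = -0.36 over 18053 probes), so the replicate number served only as an alternative. Other settings tried were cyclic loess, median scaling, an offset of 16, uncorrected signals, an intensity trend with robust priors, a filter on dim probes, leaving out each array, averaging the probes of each gene and the authors' values as log2(value + 8).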

Additional observations from a re-analysis of the deposited data

How the results depend on the processing

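No integrin probe passed under any of the 11 settings chosen with the design, the authors' value table not being usable for them. The count over all probes was 36, and it was 3 without background correction, 70 with an offset of 16, 2 with median scaling, 112 with robust priors and an intensity trend, and 0 by limma in the authors' value table (3299 at an unadjusted p under 0.05), and the causes were not tested. Leaving out 1 array gave 24 to 88. A crossed replicate block, pairing transgenic 1 with knockin 2 and transgenic 2 with knockin 1 and added after seeing the data, gave 364 calls over all probes, 1 integrin call and 1 call among the lists. With the replicate block as numbered, no member call changed and 1 list gene, Spp1, passed (adjusted p = 0.0418). Spp1 was also the 1 list gene that passed with an offset of 16 and with an intensity trend, and leaving out 1 array gave 0 to 1 list calls. Of 187 values of the 17 brighter integrin probes under these settings, 14 changed sign, all of them on leaving out 1 array, in 9 probes. These leave-one-out ranges were -0.304 to 0.143 (Itga4, 3360369), -0.0818 to 0.408, -0.0401 to 0.522 and -0.00398 to 0.462 (Itgae, 520196, 5700017 and 6450471), -0.0563 to 0.338 (Itgal), -0.0134 to 0.0879 and -0.0582 to 0.149 (Itgav, 4540025 and 7330360), -0.176 to 0.144 (Itgb1, 3890670) and -0.204 to 0.291 (Itgb2). Arrays left alone in a genotype were assumed to vary like the other genotype. Signal near background limits Itgam, Itgax, Itgb1, Itga6 and Itgav.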
